A study of Mus musculus with 6 samples.

Results

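The acyl-CoA thioesterase genes Acot1, Acot2, Acot3, Acot4, Acot7, Acot8, Acot9, Acot12 and Acot13 were followed in mouse liver. The 9 genes are members of a set of 13 Acot genes among 35540 genes in the deposited table, and a gene's level is the sum over its transcripts in TPM, a measure of transcript abundance that is corrected for transcript length and scaled to the same total in each liver. The list was chosen from the measured liver levels and genotype differences of these same mice, so those values are given here as a description without a test. Liver RNA was sequenced from 6 C57BL/6J mice homozygous for a floxed Surf4 allele, of which 3 carried the Alb-Cre transgene (Surf4 fl/fl Alb-Cre+) and 3 did not (Surf4 fl/fl Alb-Cre-, described in the study as littermate controls). Alb-Cre is Cre recombinase driven by the albumin promoter, which is active in hepatocytes. The study gives other liver cell types as the likely source of the intact Surf4 transcript that remains. Replicate 2 of each genotype came from a female and replicates 1 and 3 from males, and the labels give no ages. The mice had free access to chow, and the study's methods for sample collection describe an overnight fast.

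Acyl-CoA thioesterases split fatty acyl-CoA into free fatty acid and coenzyme A, and thereby set how much of each acyl-CoA is free for oxidation or for lipid synthesis. The family is made of unrelated protein types. The type I enzymes are closely related neighbours with different locations: ACOT1 is cytosolic, ACOT2 mitochondrial, and ACOT3 and ACOT4 peroxisomal. The type II enzymes share the hotdog fold: ACOT7 acts in the cytosol, ACOT8 in peroxisomes, ACOT9 in mitochondria, ACOT12 on acetyl-CoA in the cytosol, and ACOT13 at mitochondria and in the cytosol. In liver, several type I genes are known targets of the fatty acid receptor PPARA and rise on fasting.

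The type I genes lie side by side. Acot2, Acot1, Acot4, Acot3, Acot5 and Acot6 follow one another on the plus strand of chromosome 12 within 123 kb (GRCm38, chr12:83987861-84111349), Acot2 at 83987861 to 83993873, Acot1 at 84009490 to 84018371, Acot4 at 84038379 to 84048601 and Acot3 at 84052144 to 84060402. Acot7 lies on chromosome 4, Acot8 on chromosome 2, Acot9 on chromosome X, and Acot12 and Acot13 on chromosome 13.

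Their coding sequences are similar enough to share reads, which bears on every value of Acot1 to Acot4 below. Over positions aligned without gaps, the coding sequences of Acot1 and Acot2 were 95.3% identical, those of Acot1 and Acot3 83.9%, and the 15 pairs of the 6 neighbours ranged from 74.6% to 95.3%. The longest run shared without a difference was 273 coding bases for Acot1 and Acot2 and 203 for Acot1 and Acot3. A stretch of 60 coding bases from the middle of the alignment shows how little separates Acot1, Acot2 and Acot3, with Acot4 less alike. Bases that differ from Acot1 are in capitals (coding bases 486 to 545, and 609 to 668 in Acot2).
Acot1: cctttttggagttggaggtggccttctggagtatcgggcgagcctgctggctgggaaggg
Acot2: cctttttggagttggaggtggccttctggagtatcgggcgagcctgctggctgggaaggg
Acot3: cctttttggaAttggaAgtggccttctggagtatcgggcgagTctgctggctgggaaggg
Acot4: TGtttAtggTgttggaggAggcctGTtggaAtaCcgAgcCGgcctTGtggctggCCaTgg
In this window Acot2 had 0 differences from Acot1, Acot3 had 3 and Acot4 had 17. Of all 31-base stretches in a gene's transcripts, 37.3% of those of Acot2 also occurred in another annotated gene (29.9% in Acot1), against 22.7% for Acot1, 23.1% for Acot3 and 8.23% for Acot4. Those of Acot3 were shared most with the read-through gene Gm49366 (11.5%) and with Acot5 (8.67%). Acot9 shared 28.4%, nearly all with Acot10, a single-exon copy listed at 0 TPM in all 6 livers. Acot7, Acot8, Acot12 and Acot13 shared 0%. The split of reads between Acot1, Acot2, Acot3 and their partners, and between Acot9 and Acot10, is therefore an estimate of the quantification program. The read-through gene Gm49366, which overlaps Acot4 and Acot3, was listed at 0 TPM in all 6 livers. An antisense gene, 4732463B04Rik, overlaps the same region and was not analysed here, and strandedness is not given in the sources used here.

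The 250 bases before each start site, from RefSeq (GRCm38.p6), were available for 8 of the 9 members. They were searched on both strands for AGGTCA, the hexamer bound by nuclear receptors, and for DR1, the repeat of that hexamer with 1 base between the copies, which PPARA binds with RXR. The promoters of Acot1 to Acot4 are shown because these genes had the largest SD between livers on the log2 scale, and that of Acot12 because it holds a near DR1. Capitals mark the matches.
Acot1 promoter, chr12:84009252-84009501, plus strand: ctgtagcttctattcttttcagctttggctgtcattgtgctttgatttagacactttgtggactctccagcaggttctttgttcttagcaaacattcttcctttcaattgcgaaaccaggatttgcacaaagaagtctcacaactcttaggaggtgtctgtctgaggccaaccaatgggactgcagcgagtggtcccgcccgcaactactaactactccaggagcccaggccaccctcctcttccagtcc
Acot2 promoter, chr12:83987611-83987860, plus strand: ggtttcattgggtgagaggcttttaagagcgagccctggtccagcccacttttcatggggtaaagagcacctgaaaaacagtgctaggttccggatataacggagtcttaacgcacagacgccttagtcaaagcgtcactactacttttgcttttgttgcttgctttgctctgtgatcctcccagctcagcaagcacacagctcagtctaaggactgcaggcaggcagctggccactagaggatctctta
Acot3 promoter, chr12:84051894-84052143, plus strand: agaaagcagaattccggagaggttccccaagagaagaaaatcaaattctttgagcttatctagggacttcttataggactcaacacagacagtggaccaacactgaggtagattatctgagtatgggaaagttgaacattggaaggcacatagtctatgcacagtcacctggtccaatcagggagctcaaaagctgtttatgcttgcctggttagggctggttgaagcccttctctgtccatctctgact
Acot4 promoter, chr12:84038129-84038378, plus strand: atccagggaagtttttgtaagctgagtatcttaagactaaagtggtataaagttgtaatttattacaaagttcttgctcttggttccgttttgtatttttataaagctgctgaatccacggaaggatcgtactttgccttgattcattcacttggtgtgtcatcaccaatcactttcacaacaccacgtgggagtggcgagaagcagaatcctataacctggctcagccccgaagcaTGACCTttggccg
Acot12 promoter, chr13:91741271-91741520, plus strand: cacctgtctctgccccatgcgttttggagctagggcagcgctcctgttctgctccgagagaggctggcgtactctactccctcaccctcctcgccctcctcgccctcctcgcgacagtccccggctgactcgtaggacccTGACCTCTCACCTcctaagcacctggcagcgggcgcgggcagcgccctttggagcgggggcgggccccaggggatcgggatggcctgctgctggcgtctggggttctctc
The Acot4 promoter held 1 hexamer, read on the minus strand, 13 bases before the start. The Acot12 promoter held 1 hexamer 110 bases before the start, which is also part of a DR1 with 1 mismatch. Neither motif was in these windows of Acot1, Acot2 or Acot3. Among 32851 promoters of the same length, 14% held the hexamer, 0.0335% an exact DR1 and 0.484% a DR1 with at most 1 mismatch.

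The targeted gene and the tissue were checked against the labels. Surf4, an endoplasmic reticulum cargo receptor that moves secreted proteins toward the Golgi, was at 92.5, 94.5 and 92.5 TPM in Alb-Cre- replicates 1 to 3 and at 59.0, 71.8 and 54.3 TPM in Alb-Cre+ replicates 1 to 3. The groups did not overlap, and the mean was lower by 0.60 ± 0.13 (SE) on the log2(TPM + 0.1) scale, a value over whole transcripts that does not single out the floxed exon. The summed TPM of 8 hepatocyte markers ran from 52969 to 71459, with none at 0. Between 10059 and 11125 genes reached 1 TPM per liver, and the read depth behind the values is unknown. The labels name no batch. In bulk liver, fewer cells of a type and less RNA per cell cannot be told apart.

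Acot1 was the most abundant member. Its levels were 141.6, 367.6 and 59.0 TPM in Alb-Cre- replicates 1 to 3, and 239.9, 272.9 and 190.2 TPM in Alb-Cre+ replicates 1 to 3. The highest and the lowest liver were both controls, and the Alb-Cre+ values lay between them. The mean was 234.3 ± 41.6 TPM (SD, n = 3) in Alb-Cre+ and 189.4 ± 159.8 TPM (SD, n = 3) in Alb-Cre- livers.

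Acot12, the acetyl-CoA hydrolase, was the next most abundant. It was at 112.8, 130.7 and 94.0 TPM in Alb-Cre- and at 132.7, 118.9 and 104.0 TPM in Alb-Cre+ replicates 1 to 3, a 1.41-fold range over all 6 livers in which the genotypes overlapped. Acot13, a small hotdog enzyme for long-chain acyl-CoA, was at 76.8, 75.0 and 82.9 TPM in Alb-Cre- and at 76.0, 66.6 and 62.2 TPM in Alb-Cre+ livers. A single Alb-Cre+ value, that of replicate 1, lay within the control range.

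Acot8, a peroxisomal enzyme of broad chain length, was at 39.9, 38.7 and 26.4 TPM in Alb-Cre- and at 38.5, 39.0 and 31.05 TPM in Alb-Cre+ livers. Both genotypes were lowest in replicate 3. Acot7, known best from brain, was at 15.9, 12.9 and 17.3 TPM in Alb-Cre- and at 17.3, 13.3 and 15.8 TPM in Alb-Cre+ livers, and was lowest in replicate 2 of each genotype. Acot9, a mitochondrial enzyme, was the least abundant member at 3.16, 6.11 and 3.48 TPM in Alb-Cre- and 3.03, 5.78 and 2.54 TPM in Alb-Cre+ livers, highest in replicate 2 of each genotype.

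The remaining type I genes had higher levels in replicate 2 than in the other livers of the same genotype. Acot2 was at 11.5, 37.1 and 5.05 TPM in Alb-Cre- and at 20.97, 48.5 and 17.9 TPM in Alb-Cre+ livers. Acot3 was at 19.5, 39.6 and 5.37 TPM in Alb-Cre- and at 41.7, 72.9 and 16.8 TPM in Alb-Cre+ livers, a 13.6-fold range. Acot4, which is known to act on succinyl-CoA and related dicarboxylic acyl-CoA, was at 16.3, 24.5 and 10.95 TPM in Alb-Cre- and at 24.5, 34.1 and 19.2 TPM in Alb-Cre+ livers. In both genotypes each of these 3 genes was also lowest in replicate 3, and for each the genotypes overlapped.

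**Figure D1:**
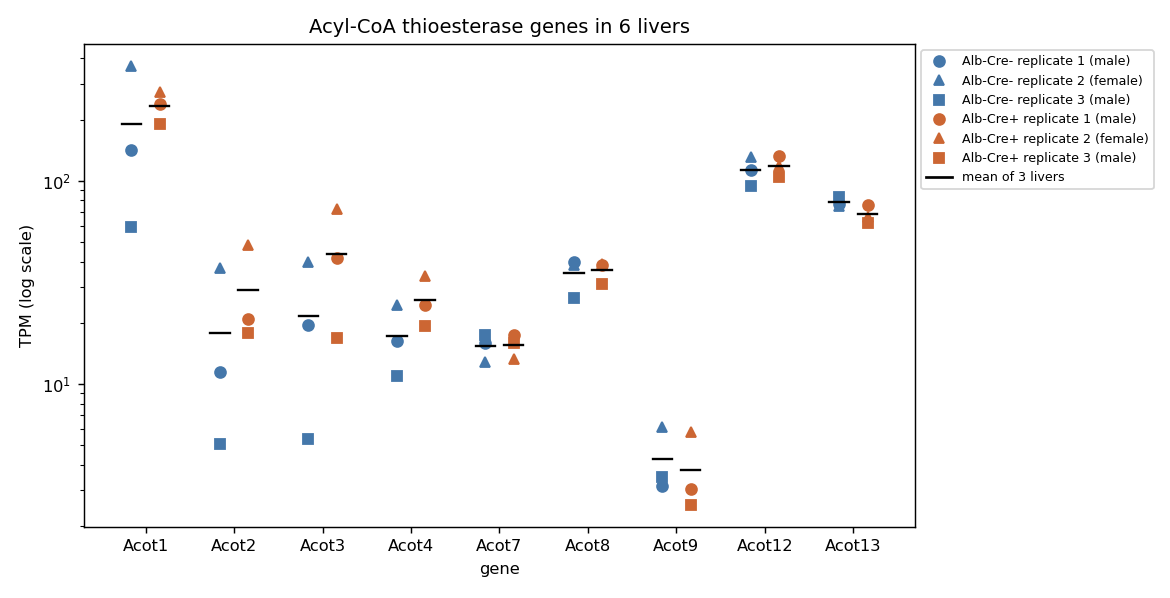
TPM (log axis) of each gene in the 3 Alb-Cre- (blue) and 3 Alb-Cre+ (orange) livers, with the marker shape giving the replicate number and a bar the mean of 3 livers. Over all 6 livers the highest value was 13.6 times the lowest for Acot3 and 1.33 times for Acot13, and for every gene the colours overlap.

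By mean TPM over the 6 livers, a scale corrected for length, the order was Acot1 (211.9), Acot12 (115.5), Acot13 (73.3), Acot8 (35.6), Acot3 (32.7), Acot2 (23.5), Acot4 (21.6), Acot7 (15.4) and Acot9 (4.02). Acot12 exceeded Acot13, Acot13 exceeded Acot8, and Acot7 exceeded Acot9 in all 6 livers. Other neighbours changed places: Acot1 exceeded Acot12 in 5 of 6 livers, Acot8 exceeded Acot3 in 3, Acot3 exceeded Acot2 in 5, Acot2 exceeded Acot4 in 2 and Acot4 exceeded Acot7 in 5. The 9 genes summed to 304.5 to 732.2 TPM per liver, with 575.4 ± 107.5 TPM (SD, n = 3) in Alb-Cre+ and 491.4 ± 218.9 TPM (SD, n = 3) in Alb-Cre- livers. Acot7, Acot8, Acot9, Acot12 and Acot13 together held a narrow range of 215.5 to 267.6 TPM, whereas Acot1 to Acot4 together ran from 80.3 to 468.9 TPM and made up 26.4% to 64.0% of the family. The share of Acot1 alone was 40.3% to 41.4% in the 3 Alb-Cre+ livers and 19.4% to 50.2% in the controls.

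The other Acot genes were near the limit of this table. Acot11, also called Them1, was at 0.73 to 1.47 TPM, Acot6 at 0.26 to 1.54 TPM and Acot5 at 0.019 to 0.310 TPM. Acot6 was highest in Alb-Cre+ replicate 2 and lowest in Alb-Cre- replicate 3, the livers at the ends of the range of Acot3.

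The comparison of genotypes asked whether loss of hepatocyte Surf4 changed liver transcript levels. Of 14189 genes whose mean reached 0.1 TPM, 0 had an adjusted p under 0.01 by limma with Benjamini-Hochberg adjustment (0%), and 250 had an unadjusted p under 0.05. The smallest adjusted p in this fit was 0.456 (limma), so Surf4 itself, whose groups did not overlap, was not called. A count of 0 here therefore does not show that no gene changed. The study, with DESeq2 on these livers, reported a limited set of genes changed at a false discovery rate under 0.01. All 9 members passed the minimum of 0.1 TPM. Log2 fold changes below are Alb-Cre+ minus Alb-Cre- on the log2(TPM + 0.1) scale with the SE of the fit.

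The differences were 1.20 ± 0.79 for Acot3, 1.02 ± 0.72 for Acot2, 0.67 ± 0.59 for Acot1 and 0.62 ± 0.33 for Acot4. They lay between -0.20 and 0.08 for the other 5 members: 0.08 ± 0.16 for Acot12, 0.07 ± 0.19 for Acot8, 0.01 ± 0.17 for Acot7, -0.19 ± 0.39 for Acot9 and -0.20 ± 0.12 for Acot13. In count, 7 of the 9 members had a higher mean in Alb-Cre+ livers, and the median over the 9 was 0.08, beside -0.0017 over all genes tested. The 4 type I members had a median of 0.85 and the other 5 a median of 0.01. Among the members 0 had genotype groups that did not overlap, where 4.90% of all genes tested had such groups.

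Single mice set the size of these differences. Without Alb-Cre- replicate 2, the control liver with the highest levels, Acot1 differed by 1.34 ± 0.37, and without Alb-Cre- replicate 3, the lowest, by 0.02 ± 0.40. Acot3 moved from 1.20 to 1.85 ± 0.73 and to 0.42 ± 0.63 in the same omissions. For Acot2 the values were 1.78 ± 0.51 and 0.35 ± 0.61, and for Acot4 0.91 ± 0.29 and 0.34 ± 0.30. Without Alb-Cre- replicate 2 the genotypes no longer overlapped for 4 members, nor for 2042 genes in all. These members were Acot1, Acot2 and Acot4 (higher) and Acot13 (lower). Groups separate more easily with fewer mice, and this omission gave the most members. The count of members was 0 without Alb-Cre- replicate 1 or 3. It was 1 without Alb-Cre+ replicate 1 or 2, and 2 without Alb-Cre+ replicate 3. With no mouse left out, 695 genes did not overlap, against 1358 to 2860 in the omissions.

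Same-numbered mice of the 2 genotypes deviated together across genes, and were therefore also compared as pairs. In pairs 1, 2 and 3 Acot3 was higher in Alb-Cre+ by 1.10, 0.88 and 1.63 on the log2 scale, Acot2 by 0.87, 0.39 and 1.80, and Acot4 by 0.59, 0.48 and 0.81. These 3 members were higher in all 3 pairs, as were 11.5% of all genes tested. Outside the list, the low neighbours Acot6 (0.41, 0.93 and 0.94) and Acot5 (0.29, 1.01 and 0.45) were also higher in all 3 pairs. Their differences over all livers were 0.76 ± 0.48 and 0.59 ± 0.46. Acot11 was lower in pair 1 (-0.67) and higher in pairs 2 and 3 (0.54 and 0.60). Acot1 differed by 0.76, -0.43 and 1.69, so that its female pair went the other way from its male pairs.

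In a fit with a replicate block, the log2 fold changes stayed as above and the SE fell to 0.17 for Acot3, 0.27 for Acot2, 0.12 for Acot4 and 0.38 for Acot1, while 0 of all genes tested passed an adjusted p of 0.01 by limma and 666 had an unadjusted p under 0.05. The replicate block removed what same-numbered mice share, including sex. Both the block and the members were chosen from these same data, so the smaller SE are a description and not a test.

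Acot9 (-0.06, -0.08 and -0.44) and Acot13 (-0.02, -0.17 and -0.42) were lower in Alb-Cre+ in all 3 pairs, as were 12.4% of all genes tested. The median over all genes itself was 0.15 in pair 2 and -0.14 in pair 3. After median-of-ratios scaling, which brings these medians to 0.00 and -0.01, Acot2, Acot3 and Acot4 were still higher in all 3 pairs (12.8% of all genes), with 0.71 to 1.77 for Acot3, 0.22 to 1.94 for Acot2 and 0.31 to 0.94 for Acot4. On that scale Acot9 was lower in all 3 pairs (14.2% of all genes) and Acot13 was at 0.01 in pair 1. Acot7, Acot8 and Acot12 were higher in some pairs and lower in others on both scales.

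**Figure D2:**
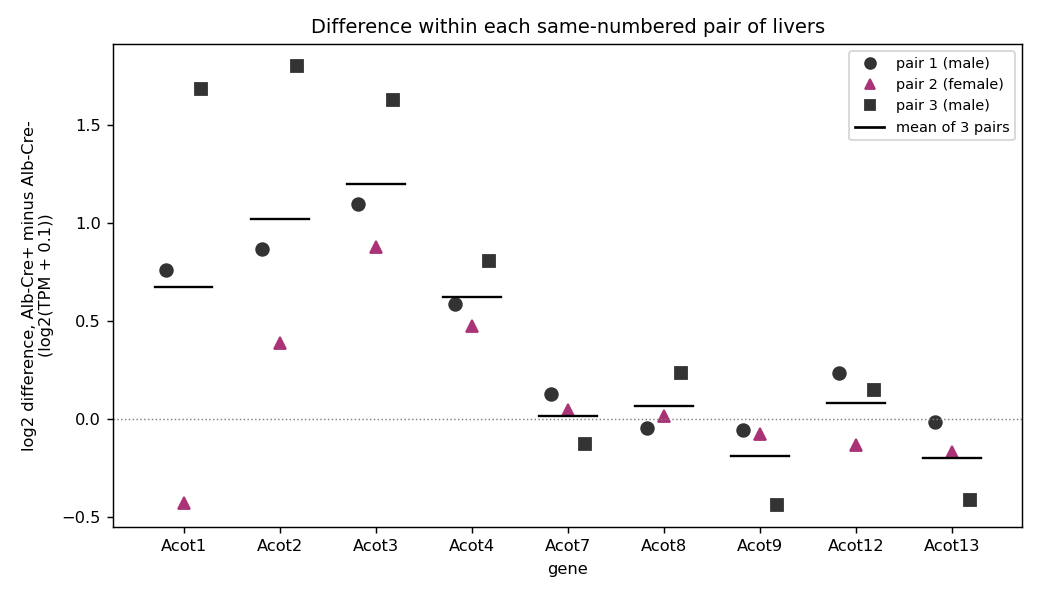
Log2 difference (Alb-Cre+ minus Alb-Cre-, log2(TPM + 0.1)) of each gene within the same-numbered pairs, pair 2 being female, with a line at the mean of the 3 pairs. Acot2, Acot3 and Acot4 lie above 0 in all 3 pairs, Acot1 lies at -0.43 in the female pair, and the other genes stay within 0.44 of 0.

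The members differed in how much they varied between livers, without a break between the type I and the other genes. The SD of log2(TPM + 0.1) over the 6 livers was 1.31 for Acot3, 1.17 for Acot2, 0.93 for Acot1 and 0.56 for Acot4, against 0.51 for Acot9, 0.24 for Acot8, 0.19 for Acot12, 0.18 for Acot7 and 0.15 for Acot13, and a median of 0.32 over all genes tested. Likeness was measured as the root mean square difference of the log2 values after each gene was centred on its own mean, over the 6 livers. Acot8 and Acot12 were the closest members at 0.11, although one acts in peroxisomes and the other in the cytosol. The 6 pairs of Acot1 to Acot4 lay at 0.38 to 0.70, and the members farthest apart were Acot3 and Acot7 at 1.31. Acot4 was about as close to Acot8 (0.38), Acot12 (0.40) and Acot9 (0.47) as to Acot1 (0.44). This measure depends on how widely a gene varies as well as on its order of livers. Acot4, like Acot2 and Acot3, was highest in replicate 2 and lowest in replicate 3 of each genotype, whereas Acot12 was highest in Alb-Cre+ replicate 1.

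A single control liver was low for much of the family. Alb-Cre- replicate 3 had the lowest value of the 6 livers for Acot1, Acot2, Acot3, Acot4, Acot8 and Acot12, 6 of the 9 members, as it did for 21.2% of all genes tested. After median-of-ratios scaling this held for Acot1 to Acot4 and Acot8, 5 of the 9, and for 17.6% of all genes. The members were chosen from the levels in these same livers, and Acot1 to Acot4 share sequence, so these counts are a description.

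**Figure D3:**
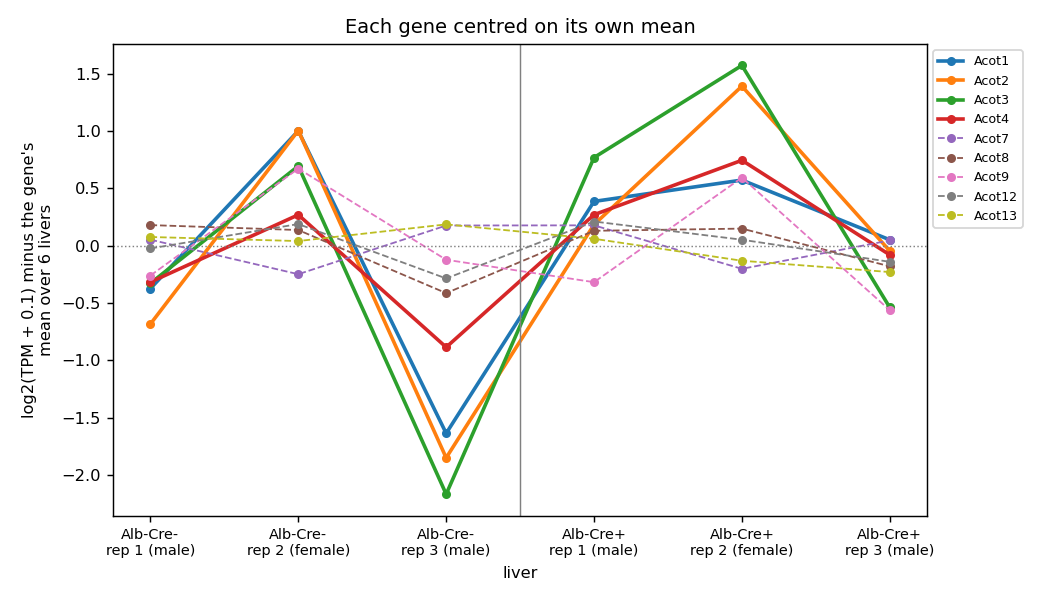
Log2(TPM + 0.1) of each gene minus its mean over the 6 livers, by liver, with Acot1 to Acot4 as solid and the other genes as dashed lines. Acot1 to Acot4 drop in Alb-Cre- replicate 3 and rise in replicate 2 of both genotypes, and Acot7, Acot8, Acot12 and Acot13 vary less.

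Sex was not used to choose the genes and was tested with genotype in the same limma fit, over 2 female and 4 male livers. All females carry replicate number 2, so sex and that number cannot be told apart. In TPM the median of all genes was 0.26 higher in females on the log2 scale, and after median-of-ratios scaling it was -0.01, so each difference is given on both scales. At an adjusted p of 0.01, 73 of the genes tested were called (0.514%) and 0 of the 9 members. At 0.05, 7.18% of genes were called on the TPM scale and 7.06% after scaling.

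Acot2 was 1.80 ± 0.36 higher in females on the log2 scale of TPM (limma, adjusted p = 0.0371), and its 2 female values, 37.1 and 48.5 TPM, lay above the 4 male values of 5.05 to 20.97 TPM. After scaling the difference was 1.51 ± 0.37 (limma, adjusted p = 0.0620). Acot9 was 0.95 ± 0.18 higher (limma, adjusted p = 0.0321), with females at 5.78 and 6.11 TPM and males at 2.54 to 3.48 TPM, and 0.67 ± 0.14 higher after scaling (limma, adjusted p = 0.0485). Acot9 passed 0.05 on both scales and Acot2 on the TPM scale. With 1 mouse left out the limma adjusted p in TPM was 0.0601 to 0.280 for Acot9, over 0.05 whichever mouse was omitted, and 0.0166 to 0.232 for Acot2. With no minimum TPM it was 0.0619 and 0.0890, so that 0 members passed 0.05.

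Acot7 was -0.34 ± 0.12 in females relative to males in TPM (limma, adjusted p = 0.137), against the 0.26 rise of the median gene, and -0.62 ± 0.12 after scaling (limma, adjusted p = 0.0380). Its females were at 12.9 and 13.3 TPM and its males at 15.8 to 17.3 TPM. The differences of Acot3 (1.70 ± 0.56), Acot1 (1.18 ± 0.46) and Acot4 (0.76 ± 0.20) had limma adjusted p of 0.111, 0.153 and 0.0686, and after scaling they were 1.41, 0.89 and 0.47. Acot8, Acot12 and Acot13 differed by 0.21, 0.18 and -0.07 in TPM and by -0.07, -0.11 and -0.35 after scaling, with limma adjusted p from 0.101 to 0.815 over both scales.

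Both females lay above all males for Acot1, Acot2 and Acot9, as for 36.6% of all genes tested, and below all males for Acot7, as for 5.00%. After scaling the members above were Acot2 and Acot9 (18.7% of all genes) and those below Acot7 and Acot13 (20.9% of all genes). Acot1 left the first set through the female Alb-Cre+ liver, whose values are divided by the largest factor, 1.21.

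**Figure D4:**
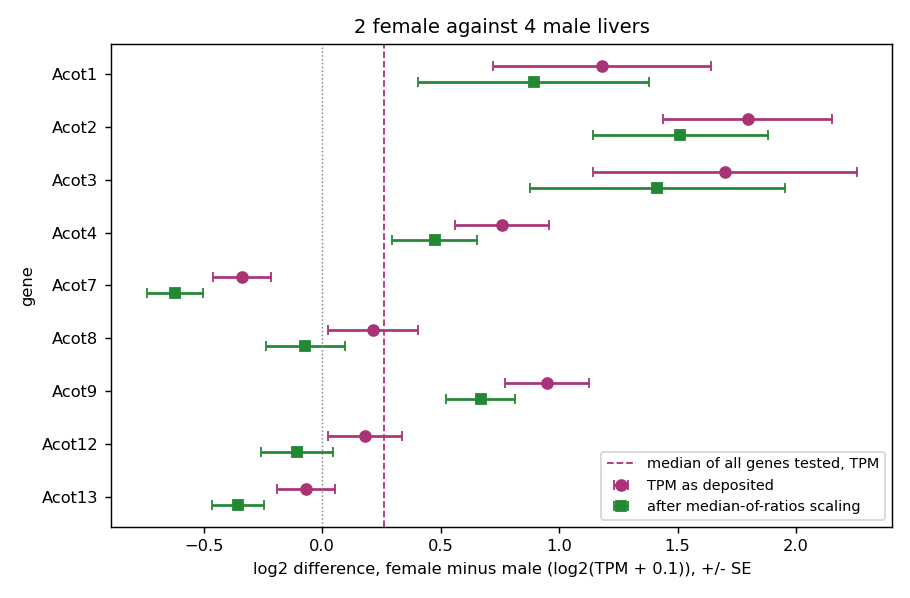
Log2 difference of 2 female and 4 male livers (female minus male, log2(TPM + 0.1)) with its SE for each gene, in TPM (circles) and after median-of-ratios scaling (squares), and the median of all genes in TPM as a dashed line at 0.26. Acot1, Acot2, Acot3, Acot4 and Acot9 lie right of 0 and Acot7 and Acot13 left of it on both scales, and Acot8 and Acot12 change sign with the scale.

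Sums of other cells' markers differed between the female and male livers, on the TPM scale in which 36.6% of all genes had both females above all males. The summed TPM of 6 Kupffer cell markers was 424.4 and 461.0 in the females and 116.2 to 180.8 in the males, with none at 0, and 1 of the 6 was called by sex at 0.01. Sums of 6 endothelial markers were 187.8 and 206.0 in females and 86.2 to 150.01 in males, and of 6 stellate markers 236.8 and 249.2 in females and 89.5 to 183.4 in males. Erythroid markers (5) summed to 102.6 and 131.2 in females and 172.2 to 408.4 in males. Of the endothelial, stellate and erythroid markers 0 were called by sex at 0.01. The part of these cells in the levels of Acot9, Acot2 and Acot7 was not tested. Sums of 6 cholangiocyte markers (15.03 to 59.3) and of 6 adipocyte markers (70.1 to 195.6, nearly all of it Car3, which liver also expresses, with the leptin gene Lep at 0) overlapped between the sexes.

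The genes whose pattern over the 6 livers was most like that of Acot1, among 10634 other genes averaging 1 TPM or more, were Cd83, an activation marker of dendritic and B cells (0.16), 1700029I15Rik (0.19), E2f8, a repressor of the cell cycle (0.19), Plin2, the coat protein of lipid droplets (0.23), and Trbc1, a constant region of the T cell receptor (0.26). Plin2 was the one of these at a high level, at 562.4, 1223.9 and 281.4 TPM in Alb-Cre- and 798.7, 1231.8 and 604.7 TPM in Alb-Cre+ livers. Those most like Acot3 were the B cell chemokine Cxcl13 (0.19), Zfp773 (0.32), the orphan nuclear receptor Esrrg (0.39), the chemokine Ccl5 (0.39) and Acot2 (0.40). The summed TPM of 6 lymphocyte markers was 2.74, 5.83 and 1.81 in Alb-Cre- and 3.49, 3.71 and 1.96 in Alb-Cre+ livers, with none at 0, and their part in the likeness to Acot1 was not tested.

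The wider pathway was followed in 6 lists of 108 genes, of which 102 passed the minimum and 0 had an adjusted p under 0.01 by limma between genotypes. An unadjusted p under 0.05 was reached by 4 of them, beside 250 of the 14189 genes tested. With the replicate block it was reached by 23 of the 102, beside 666 of the 14189 genes tested. With 1 mouse left out it was reached by 2 to 14 list genes. The count was 2 without Alb-Cre- replicate 1, beside 262 of all genes tested in that fit. It was 14 without Alb-Cre- replicate 2, beside 290. The genes named below come from the 2 of lowest p per direction in a list.

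Of the other thioesterases listed, 6 of 11 were higher in Alb-Cre+ livers, with a median of 0.07. Baat, which joins bile acids to amino acids, was at 0.07 ± 0.14 and the lysosomal Ppt2 at 0.08 ± 0.12, while the mitochondrial thioesterase Them4 was at -0.26 ± 0.16 and the lysosomal Ppt1 at -0.15 ± 0.21. Of the acyl-CoA synthetases, which make the substrates of the family, 12 of 18 were higher, with a median of 0.07. Slc27a1, a fatty acid transporter and synthetase, was at 16.1, 12.2 and 8.25 TPM in Alb-Cre- and 23.5, 17.4 and 25.3 TPM in Alb-Cre+ livers (0.89 ± 0.27), and Acsf2 at 61.4 ± 4.79 and 81.1 ± 4.57 TPM (SD, n = 3; 0.40 ± 0.12). The groups did not overlap for these genes, nor for the liver bile acid and fatty acid synthetase Slc27a5 (-0.16 ± 0.12), and Acsl5 was at -0.33 ± 0.19.

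In the list of acyl-CoA binding and carnitine transfer, 4 of 12 genes were higher and the median was -0.06. Cpt1a, which commits long-chain acyl-CoA to mitochondrial oxidation in liver, was at 273.4, 269.6 and 186.8 TPM in Alb-Cre- and 157.6, 179.1 and 130.3 TPM in Alb-Cre+ livers (-0.63 ± 0.20), without overlap. Its muscle form Cpt1b was far less abundant, at 2.68, 5.57 and 1.46 against 4.26, 12.2 and 4.98 TPM (1.16 ± 0.56). The carnitine carrier Slc25a20 was at 0.22 ± 0.16 and the peroxisomal tether Acbd5 at -0.26 ± 0.16.

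For CoA synthesis and breakdown 10 of 17 genes were higher, with a median of 0.08. The pantothenate kinase Pank1 was at 0.34 ± 0.27, the pantetheinase Vnn1 at 0.50 ± 0.47, the CoA synthase Coasy at -0.28 ± 0.15 and the peroxisomal CoA hydrolase Nudt19 at -0.20 ± 0.22. For peroxisomal fatty acid oxidation 12 of 19 were higher, with a median of 0.05. Pex11a, which acts in peroxisome division, was at 0.59 ± 0.40. The peroxisomal thiolase and carrier gene Scp2 was at 2576 ± 206.5 TPM in Alb-Cre- and 2072 ± 188.7 TPM in Alb-Cre+ livers (SD, n = 3; -0.31 ± 0.16).

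Of 25 further PPARA-responsive genes 15 were higher, with a median of 0.17. Retsat, a retinol saturase, was at 788.6, 1112 and 583.9 TPM in Alb-Cre- and 1261, 1276 and 1302 TPM in Alb-Cre+ livers (0.68 ± 0.24), without overlap, and the lipase inhibitor Angptl4 was at 0.50 ± 0.22. The hormone gene Fgf21 was at 22.7, 70.4 and 9.19 TPM in Alb-Cre- and 4.52, 16.9 and 2.57 TPM in Alb-Cre+ livers (-2.05 ± 0.88), lower in all 3 pairs although the groups overlapped. The lipid droplet gene Cidec was at -1.71 ± 0.98. Alb-Cre- replicate 3 was the lowest of the 6 livers for 47 of the 102 genes in the lists, beside the 21.2% of all genes given above. By list this was 14 of 25 PPARA-responsive genes, 10 of 19 for peroxisomal oxidation, 8 of 17 for CoA synthesis and breakdown, 7 of 12 for binding and carnitine transfer, 4 of 18 synthetases and 4 of 11 other thioesterases.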

How the data were processed

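Liver RNA-seq of 3 Surf4 fl/fl Alb-Cre+ and 3 Surf4 fl/fl Alb-Cre- mice was analysed. The authors deposited TPM per transcript and liver, in a table named for salmon. Their methods describe alignment to GRCm38 with STAR and quantification with RSEM, and the labels name both routes. The authors' own comparison table (fold changes and p-values) was not used. TPM hold no read numbers, so depth and counting error are unknown.

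TPM were summed per gene symbol, leaving out 163 of 116748 transcripts with no symbol (0.0515% to 0.0887% of TPM per liver). Values were transformed to log2(TPM + 0.1), and genes whose mean reached 0.1 TPM were fitted by limma 3.58.1 (R 4.3.3) with genotype alone, a variance trend and Benjamini-Hochberg adjustment over all genes (threshold 0.01). A fold change on this scale understates the change of low genes. Sex was fitted together with genotype. Nothing in the labels says whether same-numbered mice were littermates. The deviations of same-numbered mice from their group means correlated across genes (Pearson's r = 0.367, 0.588 and 0.370 for numbers 1, 2 and 3, against -0.444 to 0.171 for different numbers), so the replicate number was also fitted as a block. That block was chosen from these same data. Deviations from a group mean cancel out within the group, so positive same-number values lower the different-number values. Number 2 is also the female of each genotype. P-values measure the spread between these 6 mice. The procedure was tested on simulated data in which genes varied independently and, for genotype, no sex or replicate effect was included. That test therefore does not cover the variation that same-numbered mice share.

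Members, lists and tests were chosen with earlier results of these data known. Named genes are the members, the other Acot genes, Surf4, the 2 genes with the smallest p per direction in each list at a mean of at least 1 TPM, and the 5 genes most like Acot1 (highest mean) and Acot3 (largest SD). Some genes that meet this rule are not reported here. Coding sequences were those of the most abundant transcript (GENCODE M21, GRCm38), aligned with Biopython, and stand in for proteins, which were not used here. Alternatives were median-of-ratios scaling, a pseudocount of 1 TPM, no minimum or one of 1 TPM, no trend, the block, sex as covariate, an adjusted p of 0.05 and each mouse left out.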

Additional observations from a re-analysis of the deposited data

Results flagged for a closer look

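Acot1 was lower in the Alb-Cre+ than in the Alb-Cre- liver of the female pair (-0.43 on the log2 scale) and higher in the male pairs (0.76 and 1.69), and Acot12 likewise (-0.14 in the female pair, 0.23 and 0.15 in the male pairs). They are listed because the female pair and both male pairs had opposite signs. With 1 female per genotype the difference between the sexes was not tested, sex and replicate number 2 cannot be told apart, and the values of Acot12 are about the size of the SE of its genotype difference (0.16). After median-of-ratios scaling the female pair was at -0.59 for Acot1 and -0.30 for Acot12.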

How the results depend on the processing

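Between genotypes 0 genes passed an adjusted p of 0.01 by limma under each alternative and 0 passed 0.05 with the design as reported, except that 0 to 1 passed 0.01 with 1 mouse left out (1 without Alb-Cre+ replicate 1). The count at an unadjusted p under 0.05 was 250. With the replicate block 0 genes passed an adjusted p of 0.01. The median of the 9 members was 0.08 under each other setting, the replicate block (0.08) included, and 0.02 to 0.20 with 1 mouse left out. The number of genes whose genotype groups did not overlap was 695, and 1358 to 2860 with 1 mouse left out, where the group has fewer mice. Among the members it was then 0 to 4, with 4 without Alb-Cre- replicate 2. In the acyl-CoA lists 0 genes passed under each alternative. The number of genes called by sex was 73, and was 28 with no minimum, 31 with no variance trend, 1019 at an adjusted p of 0.05 and 3 to 51 with 1 mouse left out. It was 3 without either female, which leaves 1 female liver. In those omissions 0 members passed 0.01, and Acot9 passed 0.05 in 0 of them. The causes were not tested. With 3 mice per genotype and unknown depth, differences in Acot5, Acot6 and Acot11, all at low levels, cannot be judged from these data. Acot10 was at 0 TPM.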
